A study of Mus musculus with 10 samples.

Results

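The genes of the translation initiation and elongation factors were taken by symbol from the deposited gene table. Every row was kept that holds a name starting with Eif or Eef and a digit, without the eIF2 kinases Eif2ak1 to Eif2ak4, the sex-linked Eif2s3x and Eif2s3y, and names of pseudogenes. This gave 60 genes, 50 with an Eif name and 10 with an Eef name, among 49624 distinct row names. Of the 60 genes, 57 had at least 10 normalised counts in at least 2 libraries and were among the 16056 genes tested. The 3 others were Eif4e1b (0 to 7.03 normalised counts), the eEF1A paralog Eef1a2 (0 to 6.55) and Eif2c5 (0 to 3.52), and they enter no comparison. Eif2c5 is annotated as a long noncoding RNA gene and was given no role among the factors.

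RNA was sequenced from mouse embryonic stem (ES) cells, all kept in the 2i/LIF medium that holds inhibitors of MEK and GSK3 together with the cytokine LIF. In the first experiment a KO group was set against a WT group in C57BL/6J cells with Mof fl/fl alleles and Cre-ER TM, a Cre recombinase that tamoxifen switches on. Mof, whose gene is Kat8, is a histone acetyltransferase. The protocol names ethanol or 100 nM 4-hydroxytamoxifen for 3 days, the labels do not say which group had which, and neither Cre nor the drug was given alone in a group used here. In the second experiment E14tg2a cells, an established ES cell line, were Released (etomoxir for 4 days and then 4 days without it), ETO (etomoxir for 4 days) or Control (water for 4 days). No group is listed with water for the added 4 days, so release and time in culture cannot be told apart. Etomoxir blocks CPT1, the enzyme that passes long-chain fatty acids into mitochondria, where they are oxidised. All 5 groups were sequenced as 2 libraries, called biological duplicates in the series' design text. The p-values therefore measure only the spread between these samples.

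Initiation begins when eIF2 with GTP brings the initiator tRNA to the small ribosomal subunit, which eIF3, eIF1, eIF1A and eIF5 hold in place. The eIF4E, eIF4G and eIF4A proteins bind the mRNA cap and unwind the leader, and eIF5B joins the large subunit. eIF2B recharges eIF2, and 4E-binding proteins compete with eIF4G for eIF4E. During elongation eEF1A delivers aminoacyl-tRNA, eEF1B recharges eEF1A, eEF2 moves the ribosome along, and the kinase eEF2K switches eEF2 off.

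The values are normalised counts on the authors' scale, and a library summed to between 10562067 and 13326172 of them. The steps of the low values put depth at about 9782522 to 16781611 reads. On the normalised scale 3 reads, the most that a 0 leaves possible by counting error alone, came to 2.07 to 4.04 across the libraries. Kat8 (GRCm38 chr7:127912516-127925837) had 222 and 205 normalised counts in KO libraries, against 433 and 357 in WT libraries, a log2 change of −0.88 ± 0.11 (SE, limma adjusted p = 3.64e-05). Whether the counted exons include the deleted ones is not given in the sources used here. Kat8 also rose in ETO against Control (0.53 ± 0.11, limma adjusted p = 7.96e-04). The 8 naive ES cell markers summed to 37776 to 39675 in ETO libraries, against 62775 to 62980 in Control libraries. The 4 primitive endoderm markers summed to 292 to 303 in ETO libraries, against 73.8 to 77.8 in Control libraries, and the 4 feeder fibroblast markers to 163 to 165, against 56.1 to 57.1. Rows of mitochondrial genes held 0.588% to 0.761% of the counts in ETO libraries, against 3.34% to 3.39% in Control libraries. The Released libraries stood apart from each other in this share, with 1.71% in replicate 1 and 3.71% in replicate 2. The share includes 2 mitochondrial rows that are listed at 0 in Released replicate 1 but not in replicate 2. Their part in this gap was not tested. In KO libraries the naive markers summed to 56252 to 56946, against 60634 to 61601 in WT libraries. The 4 trophectoderm markers summed to 1480 to 1540 in KO libraries, against 1120 to 1130 in WT libraries, with Cdx2 and Elf5 under the 3-read limit in both groups, and to 1450 to 1460 in ETO libraries, against 781 to 793 in Control libraries. The 3 neural markers with a row summed to 772 to 793 in KO libraries, against 838 to 890 in WT libraries, and to 714 to 726 in ETO libraries, against 214 to 236 in Control libraries. The feeder marker Postn was under the limit in every group. The part of these differences in the results below was not tested. In bulk RNA, fewer cells of a type and less RNA per cell cannot be told apart.

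Levels differ by orders of magnitude between the factors. Per kilobase of merged GENCODE exon and over all libraries, Eef1a1 had a mean of 22001 normalised counts and Eef2 11700. Eif5a followed with 3740 and the eEF1B subunit Eef1b2 with 3700. Among the initiation factors, the eIF3 subunit Eif3c had 2520, the helicase partner Eif4b 2260, and the 4E-binding protein Eif4ebp1 1740 per kilobase. At the lower end on this scale were the cap-binding protein Eif4e with 187, Eef2k with 135, the scaffold Eif4g3 with 102 and Eif5a2 with 81.5. The order differs in the authors' own length-scaled values (FPKM). There Eif4e had a mean of 117 and rank 33 of the 60 genes. Eef2 (930) came behind Eef1b2 (1800) and Eif4g2 (1010), and Eif4a1 (155) behind Eif4a3 (174). The eIF4A helicases had 1330 (Eif4a2), 788 (Eif4a1) and 540 (Eif4a3) per kilobase over all libraries. Their order is not the same in every group, with 944 for Eif4a1 and 928 for Eif4a2 in Released libraries, and the Eif4a1 level leaves out the near-identical pseudogene row described at the end. Eif4a2 had 2010 per kilobase in KO and 1850 in WT libraries, against 928 in Released, 852 in ETO and 1010 in Control libraries. The lines were not tested against each other. Together the 60 genes held 2.20% to 2.45% of all normalised counts. Replicates lay close: the median absolute log2 difference between the 2 libraries of a group, over the genes, was 0.0923 in KO, 0.11 in WT, 0.0448 in Released, 0.0645 in ETO and 0.0412 in Control.

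Some rows cannot be given to 1 gene. The row of Eif4e3 also holds Foxp1 and 2 unnamed gene models, and that of Eif4ebp3 also holds Ankhd1, so their values are those of the row, and the per-kilobase level of the Eif4ebp3 row is not one of Eif4ebp3. The other 8 of the 10 genes in merged rows share theirs with small RNA genes or unnamed gene models, among them Eif4a1, Eif5, Eif4e and Eef1a1. Whether counting used strand is not given in the sources used here, and exons of 14 of the 60 genes overlap a gene on the opposite strand, such as Eef2k with Gm15774. Eif1a and its X-linked paralog Eif1ax encode near-identical proteins, and how reads were split between them is not known.

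In KO cells, 2 genes stood out. Eef2k and Eif5, the GTPase-activating protein of eIF2, were more than doubled. Eef2k (chr7:120842831-120907450) had 1308 and 1411 normalised counts in KO libraries, against 609 and 564 in WT libraries, a log2 change of 1.21 ± 0.08 (limma adjusted p = 1.51e-07). Eif5 (chr12:111538016-111546752) had 4138 and 4599 in KO libraries, against 1824 and 2185 in WT libraries, a change of 1.13 ± 0.08 (limma adjusted p = 2.98e-07). For both genes both KO libraries lay far above both WT libraries, and the changes were 1.05 to 1.13 for Eef2k and 0.96 to 1.05 for Eif5 under 4 other scalings of the libraries. The E14tg2a Control libraries had 1063 and 1099 for Eef2k and 4742 and 4674 for Eif5, which is above the WT libraries too for both genes.

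Of the 57 genes, 26 rose in KO against WT and 5 fell at a limma adjusted p under 0.05, while among all tested genes 24.6% rose and 13.3% fell (37.9% in either direction). The median change of the 57 genes was 0.10, against 0.08 over all tested genes. This excess of risers depends on the scaling: 18 rose and 8 fell with TMM factors, 20 and 8 with median-of-ratios factors, 12 and 15 with equal library totals, and 14 and 16 with equal totals without mitochondrial rows. The median of all tested genes moved by −0.16 on the log2 scale under equal totals. Under all 4 other scalings 12 of the 26 risers and all 5 that fell were called in the same direction.

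**Figure D1:**
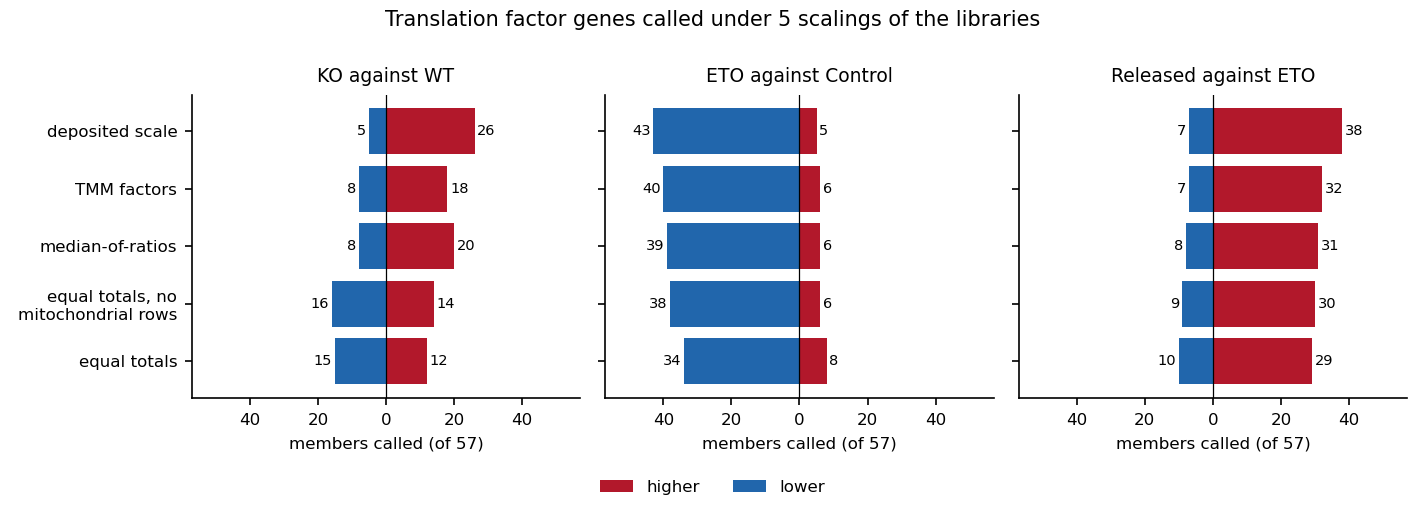
Bars give how many of the 57 tested genes were called higher (red, right) or lower (blue, left) at a limma adjusted p under 0.05 for KO against WT, ETO against Control and Released against ETO under the deposited scale and 4 other scalings. For KO the split runs between 26 higher with 5 lower and 12 higher with 15 lower, while for ETO at least 34 genes were lower under each scaling.

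Among the start-site factors, Eif1a, which stabilises scanning ribosomes, had 3503 and 3746 normalised counts in KO libraries, against 1952 and 2336 in WT libraries (log2 change 0.76 ± 0.07, limma adjusted p = 3.13e-06). Its paralog Eif1ax had a change of 0.09 and was not called. Eif1ad rose by 0.43 ± 0.08 (limma adjusted p = 4.51e-04). Eif1b (chr9:120492232-120495330), a paralog of the start-codon factor Eif1, had 219 and 194 in KO libraries, against 249 and 277 in WT libraries (−0.35 ± 0.12, adjusted p = 0.0291), and this call was lost without KO replicate 2 (−0.26), without WT replicate 2 (−0.27), with the FPKM table (−0.36), and with no filter, a fit per experiment or plain moderation (−0.35 each), over a range of adjusted p from 0.00295 to 0.178 across the alternatives. Eif1 itself had a change of −0.05 and Eif6, which keeps the subunits apart, one of 0.13, and neither was called. Eif5b (0.25) and the initiation factor Eif2d (0.19) rose on the deposited scale and under none of the other scalings.

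Both measured subunits of eIF2 rose. Eif2s1, the alpha subunit that the stress kinases phosphorylate, had 2633 and 2962 in KO libraries, against 1897 and 2338 in WT libraries, and a change of 0.41 ± 0.09. Eif2s2, the beta subunit, had 4593 and 4927, against 3357 and 3912, and a change of 0.39 ± 0.07. The libraries of the groups did not overlap, as for all 26 genes called higher in KO, and both calls held under the 4 other scalings. With the FPKM table the Eif2s1 call was lost and the Eif2s2 call was kept. Of the eIF2B subunits, Eif2b4 rose by 0.40 ± 0.09, Eif2b1 fell by 0.29 ± 0.08 on the log2 scale, and Eif2b2, Eif2b3 and Eif2b5 were not called (−0.17, −0.18 and −0.02). The Eif2b4 call was lost with equal totals and with the FPKM table. The Eif2b1 call was lost with the FPKM table, a fit per experiment, plain moderation and without KO replicate 2. Eif2b1 had 654 and 607 normalised counts in KO libraries, against 789 and 757 in WT libraries.

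The eIF3 genes went both ways in KO, with 6 of 14 higher, 3 lower and 5 not called. Higher were Eif3a (0.35), the large scaffold subunit, and Eif3c (0.39 ± 0.05, limma adjusted p = 2.18e-05), with 11180 and 11243 normalised counts of Eif3c in KO libraries, against 8518 and 8649 in WT libraries. Eif3j2 had 413 and 486 in KO libraries, against 318 and 338 in WT libraries (0.45 ± 0.11), a call lost under equal totals. Eif3e (0.36), Eif3b (0.28) and Eif3g (0.17) rose on the deposited scale and not under all others. Lower were Eif3i with 1932 and 1868 in KO libraries, against 2590 and 2262 in WT libraries (−0.35 ± 0.08), Eif3f with 3217 and 3127, against 3951 and 3684 (−0.27 ± 0.06), and Eif3h with 1688 and 1784, against 1986 and 2066 (−0.22 ± 0.06). Their calls held under the 4 other scalings, but that of Eif3h was lost with a fit per experiment and with plain moderation.

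The scaffolds of the cap complex moved unevenly in KO. Eif4g2, a scaffold without the eIF4E binding site, had 17081 and 17766 normalised counts in KO libraries, against 11180 and 12339 in WT libraries (log2 change 0.57 ± 0.06, limma adjusted p = 3.13e-06). Eif4g3 had 1235 and 1203, against 921 and 887 (0.43 ± 0.08), and Eif4g1 had 9408 and 9247, against 8406 and 8203 (0.17 ± 0.05), whose call was lost under each of the 4 other scalings. The helicase Eif4a1 had 4059 and 3965 in KO libraries, against 2814 and 2604 in WT libraries (0.57 ± 0.07, limma adjusted p = 2.34e-05). Eif4a2, with 10141 and 11326 in KO libraries against 8942 and 10804 in WT libraries, and Eif4a3, with 1051 and 952 against 983 and 938, overlapped between the groups and were not called (0.13 and 0.06). Of the eIF4E family, Eif4e had 1349 and 1410 in KO libraries, against 1209 and 1421 in WT libraries, overlapped and was not called (0.07). The Foxp1 and Eif4e3 row had 149 and 140, against 161 and 178, and was not called (−0.23). Eif4e2 had 1795 and 1847, against 1541 and 1511, and rose by 0.26 ± 0.06, a call kept under 1 of the 4 other scalings.

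The 4E-binding protein Eif4ebp1, which holds back eIF4E when mTOR is inactive, had 5511 and 4981 in KO libraries, against 4571 and 3780 in WT libraries (0.33 ± 0.08, limma adjusted p = 0.00345), a call lost under both equal-total scalings. Eif4ebp2 had 4868 and 4770 in KO libraries, against 4701 and 4333 in WT libraries, and was not called (0.09). The Ankhd1 and Eif4ebp3 row had 3584 and 3728, against 2659 and 2908 (0.39 ± 0.07). Eif5a, which helps ribosomes over proline-rich stretches, had 10972 and 10010, against 8812 and 7924 (0.33 ± 0.06), a call kept under 2 of the 4 other scalings. Eif5a2 had 301 and 391, against 325 and 350, overlapped and was not called (0.03). Of the elongation factors proper, Eef2 had 37957 and 35066 in KO libraries, against 40723 and 38298 in WT libraries, and was not called (−0.11 ± 0.05, adjusted p = 0.0793) although it was called lower under the 4 other scalings. Eef1a1 had 66334 and 62222, against 62822 and 57318, and was not called (0.10 ± 0.05).

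**Figure D2:**
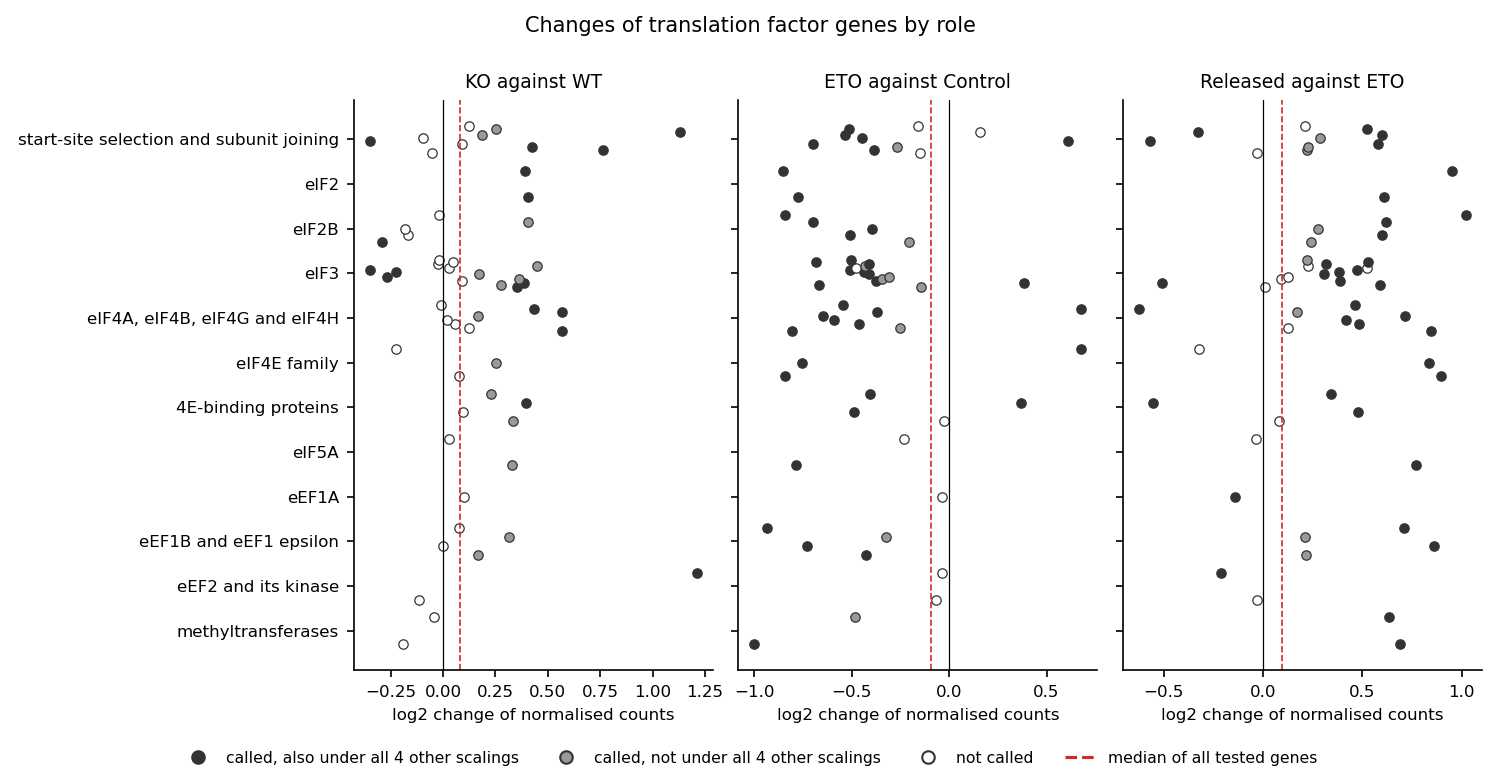
Each point is the fitted log2 change of 1 of 57 tested genes in KO against WT, ETO against Control or Released against ETO, by role, dark where the call also held under the 4 other scalings, grey where it did not hold under all, open where not called, and a dashed line at the median of all tested genes. In the ETO panel the eIF2, eIF2B and eEF1B genes all lie left of 0, whereas eEF1A and eEF2 lie near it.

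In ETO cells the change was broad and one-sided: 43 of 57 genes fell and 5 rose against Control, while among all tested genes 34% fell and 26.8% rose (60.8% in either direction). The median change of the 57 genes was −0.43, against −0.09 over all tested genes. At least 34 genes fell under each of the 4 other scalings, 34 of the 43 in all of them at once, and all 5 risers were called under all 4. Equal totals moved the median of all tested genes by 0.19 on the log2 scale, and the medians of the 57 genes then were −0.24, against 0.09 over all tested genes.

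Both eIF2 subunits fell. Eif2s2 had 2746 and 2627 normalised counts in ETO libraries, against 4829 and 4872 in Control libraries (log2 change −0.85 ± 0.07, limma adjusted p = 4.44e-08). Eif2s1 had 1572 and 1407, against 2541 and 2541 (−0.77 ± 0.09). All 5 eIF2B genes fell as well, led by Eif2b5, the catalytic subunit, with 2231 and 2155 in ETO libraries, against 3962 and 3915 in Control libraries (−0.84 ± 0.06, limma adjusted p = 3.77e-09). Eif2b1 was the least changed at −0.21, a call lost under the 4 other scalings.

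Of the 14 eIF3 genes 12 fell, with a median change of −0.42 over all 14. Eif3l (−0.68), Eif3b (−0.67) and Eif3i (−0.51) changed most, and Eif3a least (−0.15). The Eif3a call was lost under the 4 other scalings, and its direction turned with equal totals (0.04). Eif3c went the other way: it had 9847 and 9899 normalised counts in ETO libraries, against 7657 and 7487 in Control libraries, a rise of 0.38 ± 0.05 (limma adjusted p = 4.17e-06). Eif3c was the only eIF3 gene called higher, under the deposited scale and the 4 others. Eif3j1, at 3.32 to 7.27 normalised counts in these libraries, was not called.

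Of the 8 eIF4A, eIF4B, eIF4G and eIF4H genes 7 fell. Eif4a1 had 2389 and 2170 in ETO libraries, against 4213 and 3767 in Control libraries (−0.81 ± 0.07, limma adjusted p = 8.91e-08). Eif4a3 fell by 0.46 ± 0.07 on the log2 scale, and Eif4a2 by 0.25 ± 0.09, a call lost under the other scalings. Eif4e had 640 and 611 in ETO libraries, against 1139 and 1099 in Control libraries (−0.84 ± 0.09), and Eif4e2, a cap-binding protein that represses translation, had 1571 and 1545, against 2619 and 2633 (−0.75 ± 0.06). Eif4g1 had 8842 and 9482, against 14337 and 14329 (−0.65 ± 0.05), Eif4b fell by 0.59 and Eif4h by 0.54 on the log2 scale, and Eif4g2 had 16297 and 15788, against 21358 and 20121 (−0.37 ± 0.06).

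Eif4g3 (chr4:137993022-138208508) was the exception, with 1468 and 1630 normalised counts in ETO libraries, against 977 and 957 in Control libraries, a rise of 0.68 ± 0.08 (limma adjusted p = 1.5e-06). Eif1b had 387 and 425, against 259 and 272 (0.61 ± 0.12, adjusted p = 3.19e-04). The Foxp1 and Eif4e3 row had 83.0 and 112 in ETO libraries, against 56.1 and 64.3 in Control libraries (0.67 ± 0.18, adjusted p = 0.00351), a call lost without ETO replicate 2, and the FPKM table gave −0.22. The Ankhd1 and Eif4ebp3 row had 2942 and 3261, against 2346 and 2445 (0.37 ± 0.07). In each of these the libraries of the groups did not overlap, as in all 5 genes called higher and all 43 called lower. Eif4ebp1, with 3099 and 3202, against 3241 and 3168, was not called (−0.02), and Eif4ebp2 fell by 0.49 on the log2 scale, with 3620 and 3950 in ETO libraries, against 5390 and 5209 in Control libraries. Eif5 had 5444 and 5052, against 4742 and 4675, a change of 0.16 that was not called here but was called higher under the 4 other scalings. Most start-site genes went down: of the 10, 6 fell, 1 rose (Eif1b) and 3 were not called, with a median change of −0.33.

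The elongation side split. The 4 genes of eEF1B and eEF1 epsilon fell, led by Eef1g with 1387 and 1338 normalised counts in ETO libraries, against 2455 and 2765 in Control libraries (−0.93 ± 0.07, limma adjusted p = 2.35e-08), and Eef1d with 1485 and 1509, against 2462 and 2508 (−0.73 ± 0.06). Eef1a1, with 50997 and 51215, against 55044 and 49812, had a change of −0.04. Eef2, with 37965 and 40330, against 40855 and 41046, had one of −0.07, and Eef2k one of −0.04 with 986 and 1124, against 1063 and 1099; none of these 3 was called. Both methyltransferases fell: Eef1akmt1, which modifies eEF1A, had 89.9 and 93.0 in ETO libraries, against 181 and 187 in Control libraries (−0.998 ± 0.133), the largest fitted fall of the 57 genes. Eif5a had 5651 and 5909, against 10345 and 9606 (−0.79 ± 0.06), while Eif5a2, with 461 and 406, against 531 and 487, was not called (−0.23).

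**Figure D3:**
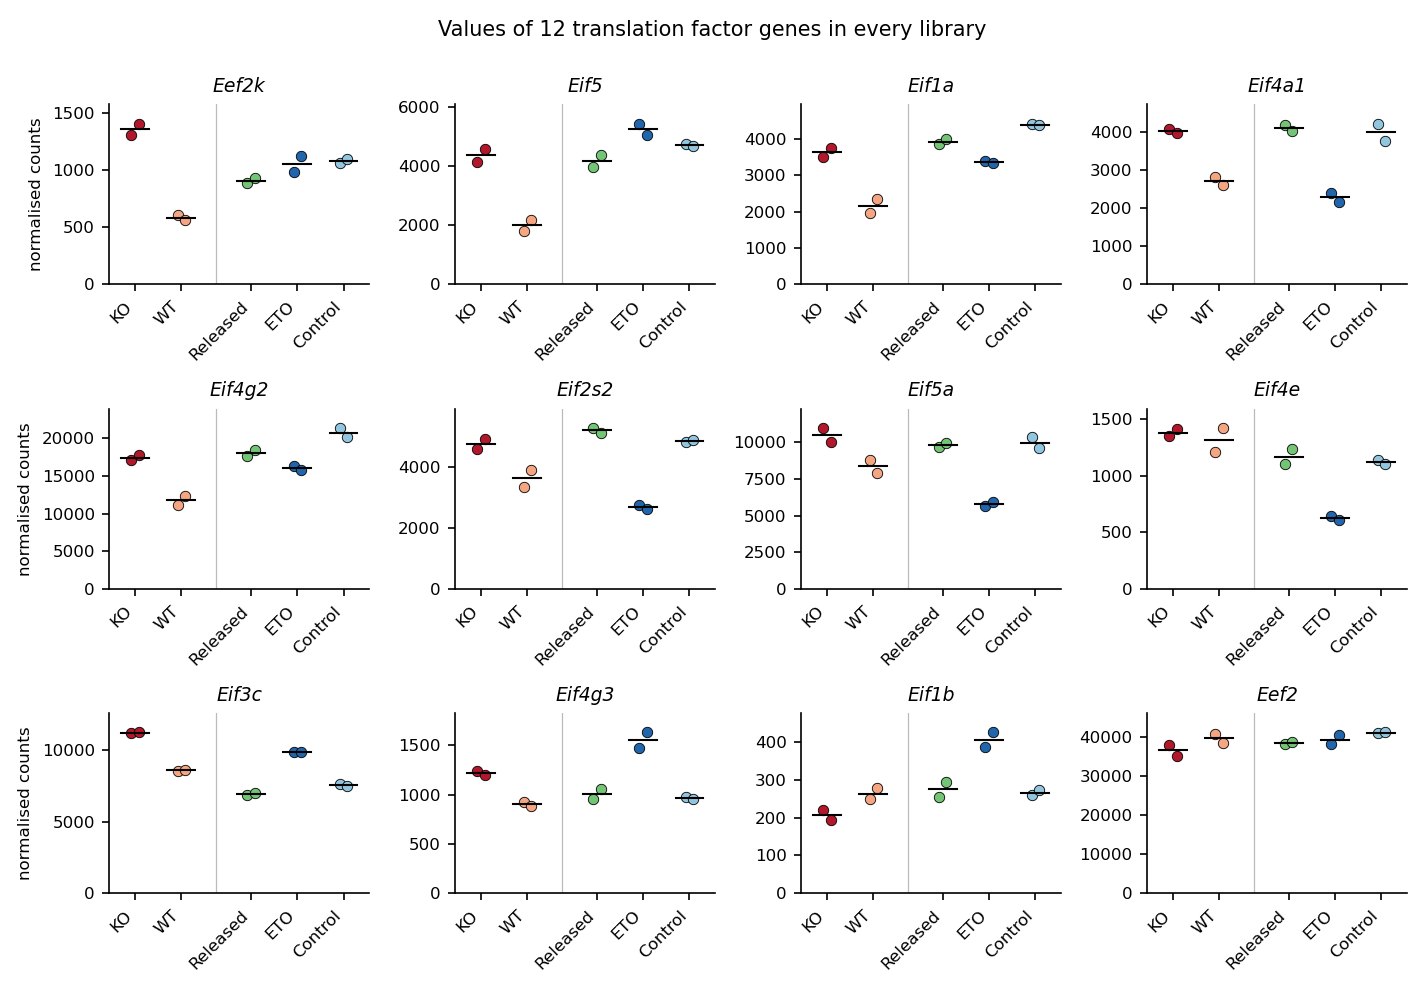
Points are the normalised counts of 12 genes in each of the 10 libraries and lines are group means, with KO and WT left of the grey line and Released, ETO and Control right of it. Eif4a1, Eif2s2, Eif5a and Eif4e are lowest in ETO within their line, Eif3c, Eif4g3 and Eif1b are highest there, and Eef2k and Eif5 are lowest in WT.

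Released against ETO, 38 of 57 genes rose and 7 fell, against 33.1% and 24.6% of all tested genes (57.7% in either direction). The median change was 0.32, against 0.10 over all tested genes, and 29 of the 38 risers and all 7 that fell were called under the 4 other scalings. Released against ETO and ETO against Control share the ETO libraries, so the values of both are given side by side and are not independent. Eif2b5 rose most, with 4372 and 4497 normalised counts in Released libraries, against 2231 and 2155 in ETO libraries (1.02 ± 0.06, limma adjusted p = 7.4e-10), and it had changed by −0.84 in ETO against Control. Eif2s2 had 5280 and 5118 in Released libraries, against 2746 and 2627 in ETO libraries (0.95 ± 0.07), and Eif4e had 1102 and 1234, against 640 and 611 (0.90 ± 0.09). Eef1d had 2687 and 2744, against 1485 and 1509 (0.86 ± 0.06). None of these libraries overlapped between the groups, as for all 38 genes called higher. Eif4a1 had 4178 and 4006, against 2389 and 2170 (0.85 ± 0.07), and Eif4e2 had 2742 and 2828, against 1571 and 1545 (0.84 ± 0.06). The changes of these 5 genes in ETO against Control were −0.85, −0.84, −0.73, −0.81 and −0.75. Of the 5 genes called higher in ETO against Control, 4 were called lower in Released against ETO and the Foxp1 and Eif4e3 row was not (−0.32). Eif4g3 had 954 and 1056 in Released libraries, against 1468 and 1630 in ETO libraries (−0.62 ± 0.08), and Eif1b had 255 and 293, against 387 and 425 (−0.57 ± 0.12). Eif3c had 6896 and 7011, against 9847 and 9899 (−0.51 ± 0.05), and the Ankhd1 and Eif4ebp3 row had 2123 and 2102, against 2942 and 3261 (−0.55 ± 0.07). The other 3 that fell were not among those called in ETO against Control. They were Eif5 with 3987 and 4398, against 5444 and 5052 (−0.32 ± 0.08), Eef2k with 887 and 930, against 986 and 1124 (−0.21 ± 0.08), and Eef1a1 with 45869 and 46845, against 50997 and 51215 (−0.14 ± 0.05). The Eef1a1 call was lost without any 1 of the 4 ETO and Released libraries, with plain moderation and with the FPKM table, where the change was 0.02. The Eef2k call was lost without ETO replicate 2, without either Released or either Control library, with plain moderation and with no filter. The Eif5 call was lost without Released replicate 1. The number called lower was 4 without Released replicate 1.

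In Released against Control the number of genes called depended on the fit. By limma at an adjusted p under 0.05, 0 of 57 genes were higher and 5 lower, against 7.03% and 5.51% of all tested genes (12.5% in either direction). At an unadjusted p under 0.05, 2 were higher and 17 lower. The 5 were Eif3m with 538 and 539 normalised counts in Released libraries, against 671 and 637 in Control libraries (−0.28 ± 0.08), Eef1b2 with 9616 and 9695, against 11017 and 11290 (−0.21 ± 0.06), Eif4g2 with 17673 and 18458, against 21358 and 20121 (−0.20 ± 0.06), Eef1a1 with 45869 and 46845, against 55044 and 49812 (−0.18), and Eif4b with 10197 and 10104, against 11425 and 11478 (−0.17 ± 0.05). In all 5 both Released libraries lay below both Control libraries. Printing the largest called changes required this, so it adds no support. With a fit per experiment 19 genes were lower, and with the replicate block 17. None of the 5 calls held under all other scalings, and the count ran from 0 to 14 when 1 library was left out, being 14 without either WT library, 1 without Control replicate 2, and 0 without Control replicate 1 or either Released library. The median change of the 57 genes was −0.08, against 0.01 over all tested genes.

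**Figure D4:**
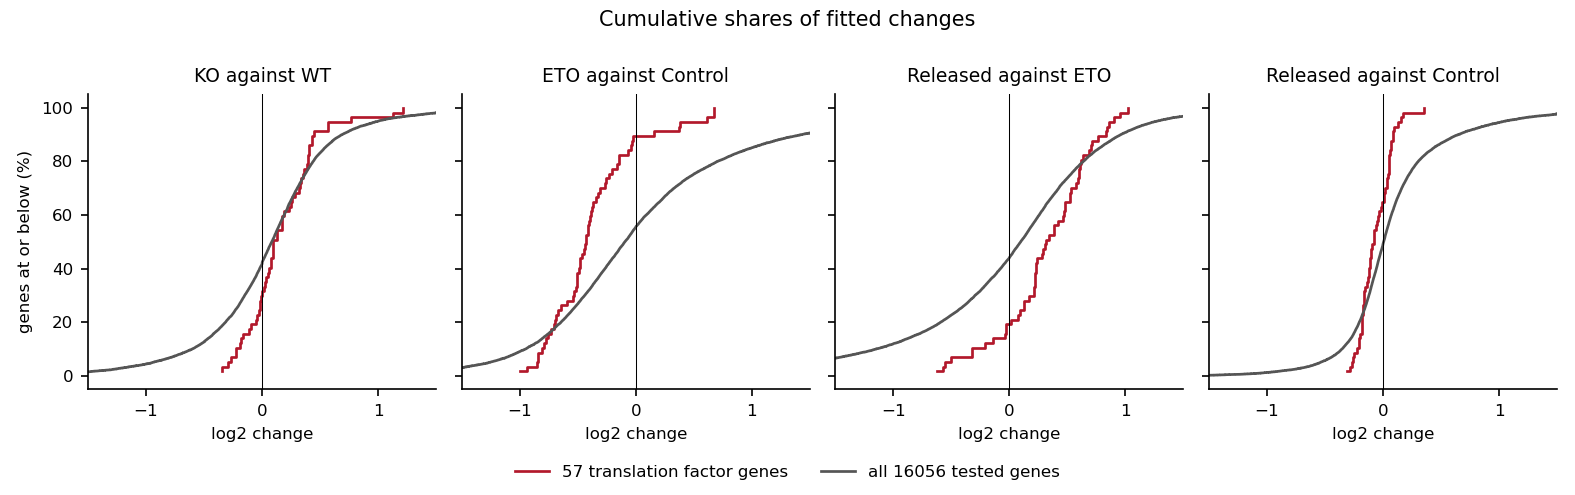
Lines give the percentage of genes with a fitted log2 change at or below each value, for the 57 translation factor genes (red) and all 16056 tested genes (grey) in 4 comparisons. The red line lies left of the grey one over most of the range for ETO against Control, right of it for Released against ETO, and is steeper than it for Released against Control.

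KO against WT and ETO against Control share no library, so their difference was fitted as a term of its own. The change differed for 42 of 57 genes, 40 with a higher change in KO and 2 with a lower one, against 32.3% and 22.2% of all tested genes (54.5% in either direction). The median difference was 0.58, against 0.13 over all tested genes, and 29 of the 40 held under the 4 other scalings. The split was 34 higher and 5 lower with TMM factors, 35 and 5 with median-of-ratios factors, 29 and 10 with equal totals, and 31 and 8 with equal totals without mitochondrial rows. With equal totals the median difference was 0.23 for the 57 genes, against −0.22 over all tested genes. The largest were Eif4a1 (1.37), Eef2k (1.25), Eif2s2 (1.24), Eif2s1 (1.18) and Eif1a (1.15), with standard errors of 0.10 to 0.13 and limma adjusted p at or below 1.62e-06. Eif1b (−0.96 ± 0.17) and the Foxp1 and Eif4e3 row (−0.90 ± 0.25) went the other way. In all, 20 genes (35.1%) rose in KO and fell in ETO, against 9.80% of all tested genes. The 3 that rose in both (Eif3c, Eif4g3 and the Eif4ebp3 row) were 5.26%, against 8.10%. The 4 that fell in both (Eif2b1, Eif3f, Eif3h and Eif3i) were 7.02%, against 5.04%. The count of genes higher in KO and lower in ETO was 11 with TMM factors and 12 with median-of-ratios factors. It was 5 with equal totals and 7 with equal totals without mitochondrial rows. The shares of all tested genes were 5.35%, 6.11%, 3.43% and 3.80%, in the same order. Eif1a, Eif2s1, Eif2s2, Eif4a1 and Eif4g2 were called higher in KO and lower in ETO under all 5 scalings. Eif1b was the 1 gene that fell in KO and rose in ETO. The difference also holds the difference between cell lines and treatments, which cannot be told apart.

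**Figure D5:**
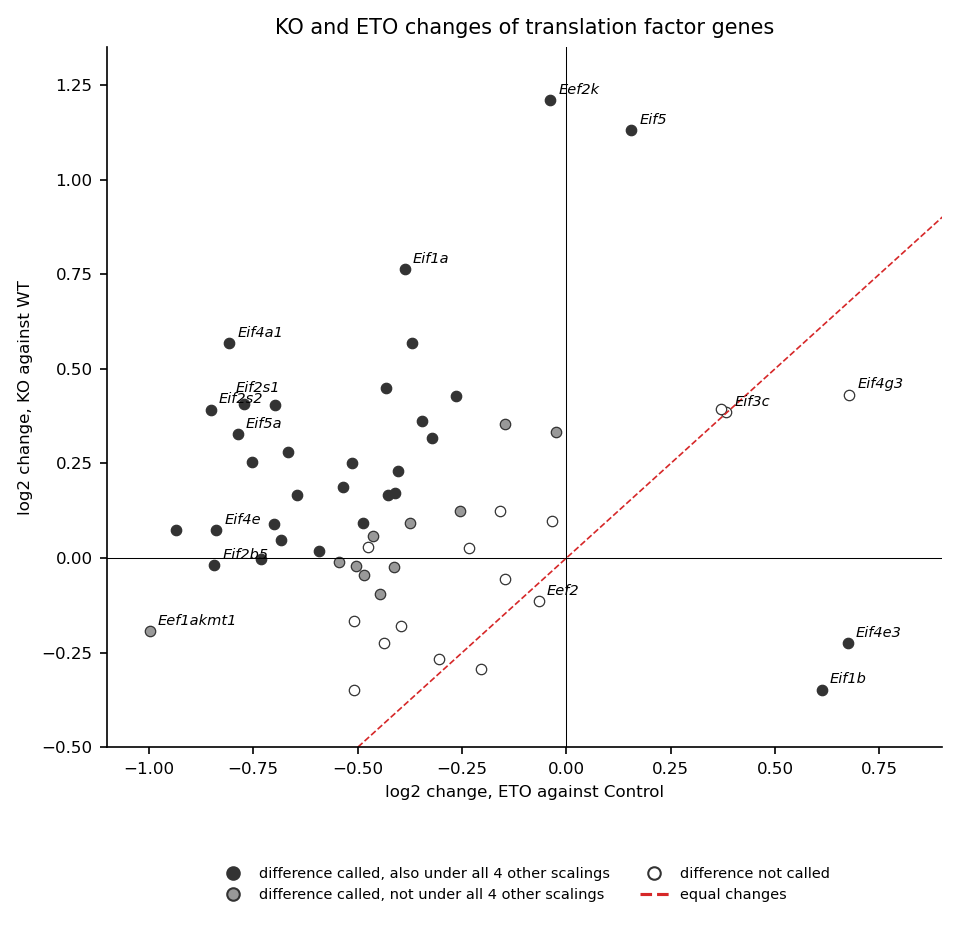
Each point is 1 of 57 tested genes by its log2 change in ETO against Control (horizontal) and in KO against WT (vertical), with the dashed line at equal changes and dark or grey points where the difference was called. Most points lie above the line and left of 0, with Eef2k and Eif5 at the top near 0 and Eif1b and the Eif4e3 row at the lower right.

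Genes that act beside these factors were taken from lists by name. Of 11 poly(A)-binding proteins and partners, 0 rose and 8 fell in ETO against Control, with a median change of −0.53, against −0.09 over all tested genes, of which 34% fell. In KO against WT 6 of the 11 rose and 2 fell, against 24.6% and 13.3% of all tested genes. Of the 6, Paip2 (0.58) and Ddx3x (0.80) were called under the 4 other scalings, Mcts2 (0.42) under 2, and Pabpc1 (0.12), Paip1 (0.25) and Abce1 (0.20) under none. Pabpc1, the main poly(A)-binding protein, had 16045 and 15610 normalised counts in ETO libraries, against 28067 and 26740 in Control libraries (−0.79 ± 0.05). All 3 termination factors fell in ETO (Etf1 −0.48, Gspt1 −0.46, Gspt2 −0.34, the last under none of the other scalings), while Etf1 (0.56) and Gspt1 (0.33) rose in KO. Of 7 mitochondrial initiation and elongation factors 6 fell in ETO, against 34% of all tested genes, with Tufm at −0.86 and Guf1 at −0.74, and Mtif3 was not called (−0.00). Of the eIF2 kinases and phosphatase subunits, Ppp1r15a, which directs phosphatase to eIF2 alpha, had 3140 and 3030 in ETO libraries, against 687 and 655 in Control libraries (2.20 ± 0.08, limma adjusted p = 5.12e-12), and 1510 and 1410 in KO libraries, against 651 and 600 in WT libraries (1.22 ± 0.08). Eif2ak3, the kinase PERK, rose in ETO (0.68 ± 0.09) and was not called in KO (0.01), and Eif2ak1, the heme-regulated kinase, fell in both (−0.46 in ETO and −0.44 in KO). Of 10 genes of mTORC1 and MNK signalling 3 rose and 3 fell in ETO, near the 26.8% and 34% of all tested genes. In KO 4 of the 10 rose and 2 fell, against 24.6% and 13.3%, and of the 4 Rps6kb1 (0.41) and Larp1 (0.35) held under the 4 other scalings, Mknk2 (0.36) under 1 and Rps6ka1 (0.20) under none. Of 7 diphthamide enzymes of eEF2, 0 rose and 4 fell in ETO, against 26.8% and 34% of all tested genes. In KO 0 rose and 2 fell, against 24.6% and 13.3%. Of the 4 that fell in ETO, Dph6 (−0.27) and Dph7 (−0.26) were called under none of the other scalings. Of 2 selenocysteine elongation genes 1 rose in ETO, against 26.8% of all tested genes, and 1 fell in KO, against 13.3%. Dhps, the first enzyme of eIF5A hypusination, fell in ETO (−0.92 ± 0.10).

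Promoter windows of 250 bases before to 50 after a RefSeq start (GRCm38.p6) were found for 43 of the 57 tested genes. The E-box letters CACGTG, the same on both strands, lay in a window of 12 of the 43 genes (27.9%), against 11.7% of 11058 tested genes with a window and 8.09% of all genes in the table. The pattern TGATGNAA lay, on either strand, in 1 of the 43 (Eef2k, 84 bases before 1 of its starts), which is 2.33%, against 2.82%. A C at the start followed by 4 or more C or T lay in 1 of 43 (Eif3f), which is 2.33%, against 3.07% of tested genes with a window. These are letters in a window and not sites, and no match says only that the letters are not there. Stretches around the letters follow for 6 genes, upstream of a start and free of annotated exons, to show where the letters (in capitals) lie in genes that fell in ETO (Eif4g1, Eif4a1, Eif5a and Eif3f) and in 2 that were not called in ETO (Eef2 and Eef2k).
Eif4g1, chr16:20672643-20672708, plus strand: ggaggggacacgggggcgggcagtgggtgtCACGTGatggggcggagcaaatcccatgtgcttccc
Eif4a1, chr11:69672577-69672642, minus strand: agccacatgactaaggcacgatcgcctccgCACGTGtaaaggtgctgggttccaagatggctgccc
Eif5a, chr11:69921425-69921490, minus strand: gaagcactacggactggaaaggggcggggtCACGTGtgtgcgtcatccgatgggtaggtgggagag
Eif3f, chr7:108934317-108934382, plus strand: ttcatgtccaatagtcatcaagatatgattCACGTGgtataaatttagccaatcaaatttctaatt
Eef2, chr10:81176558-81176623, plus strand: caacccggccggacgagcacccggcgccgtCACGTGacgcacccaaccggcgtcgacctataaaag
Eef2k, chr7:120842770-120842830, plus strand: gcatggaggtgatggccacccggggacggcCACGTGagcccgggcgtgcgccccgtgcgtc
The 12 genes with the letters had 8 called lower and 1 higher in ETO, with a median change of −0.36, against 25 lower and 2 higher among the 31 genes without them, with a median of −0.48.

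Eif4a1 has a near-identical copy, the processed pseudogene Eif4a-ps4 (chr1:60703932-60705149), which the table lists on its own row. Over 1218 bases of GENCODE transcript the 2 differ by G534A, counted from 1 at the 5′ end of the pseudogene transcript. The 41 bases around it are shown because a short read from within these 1218 bases that misses this base cannot be placed.
Eif4a1: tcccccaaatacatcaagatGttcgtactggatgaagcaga
Eif4a-ps4: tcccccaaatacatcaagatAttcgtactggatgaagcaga
The pseudogene row held 4090 to 7480 normalised counts, above the 2170 to 4210 of Eif4a1. It changed by 0.34 in KO against WT, −0.79 in ETO against Control and 0.74 in Released against ETO. With its counts added to Eif4a1 the changes of the sum were 0.42, −0.80 and 0.78.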

How the data were processed

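Single-end reads of TruSeq libraries from 10 mouse ES cell samples were processed on mm10 by the authors. TopHat2 2.1.1, SAMtools 1.5 and deepTools are the programs listed, per the submitters' processing notes. What produced the per-gene tables is not given in the sources used here. The deposited counts are a signal: read counts divided by the authors by 1 factor per library, with 89.0% to 90.3% of values under 20 reads whole within 0.1 read, so no count model was fitted. The authors' deposited FPKM table, read with a pseudocount of 0.1 and a minimum of 0.5, served as an alternative. Rows of the same name were summed, and 2 mitochondrial rows listed at 0 in Released replicate 1 were left out.

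A linear model with 1 mean per group was fitted to log2(value + 1), which understates changes of low genes, over all 10 libraries with limma 3.58.1 in R 4.3.3 (intensity trend, robust moderation). Tests were two-sided, with Benjamini-Hochberg adjustment over 16056 genes, and called at an adjusted p under 0.05. Standard errors are of fitted log2 changes with n = 2 per group. The fit was tested on simulated data. TMM and median-of-ratios factors were computed from their definitions. Pseudogenes were matched to parents with BLAST 2.17.0. Levels per kilobase used merged exons of GENCODE M21, and promoter sequences came from RefSeq (GRCm38.p6). Tables and figures were made in Python 3.11.15 (pandas 2.3.3, numpy 2.4.6, matplotlib 3.10.9).

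Values in every library are printed for up to 6 called genes with the largest rise and up to 6 with the largest fall per comparison, where the groups do not overlap. The same holds for up to 5 genes each way whose KO change differed most from the ETO change, and for sets of paralogs. The genes and lists were chosen with earlier results of these data known. Alternatives were other scalings, pseudocounts, filters, the FPKM table, a fit per experiment, a replicate block, plain moderation, leaving out each library, and, added after the data were seen, pseudogene rows added to parents, mitochondrial rows kept, equal totals without mitochondrial rows, and the count of genes higher in KO and lower in ETO under each scaling.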

Additional observations from a re-analysis of the deposited data

Results flagged for a closer look

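The changes of 42 genes in KO against WT and in ETO against Control differed when the difference itself was tested. The difference in log2 change was 1.37 for Eif4a1, 1.25 for Eef2k, 1.24 for Eif2s2, 1.18 for Eif2s1 and 1.15 for Eif1a, and −0.96 for Eif1b and −0.90 for the Foxp1 and Eif4e3 row. KO and WT are another line than ETO and Control, so line and treatment cannot be told apart.

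Signal was also present in rows of pseudogenes that the comparisons above do not use, above the limit that a count of 0 allows. Their mean normalised counts over all libraries were 29 for Eif1-ps1, 161 for Eif3s6-ps1, 312 for Eif3s6-ps2, 16.4 for Eif3s6-ps4, 6040 for Eif4a-ps4 and 675 for Eif5al3-ps. Reads of parent and copy were not separated here.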

How the results depend on the processing

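Of the values of the 57 single genes under the alternatives, 6287 kept their side of the threshold. Of the rest, 314 lost a call, 154 gained one and 20 reversed. A reversal was counted only where the gene was called on the deposited scale or under the alternative. Values called in neither count as kept even where the direction turned. Eef1a1 in KO against WT is such a case, with 0.10 on the deposited scale and down to −0.07 under the other scalings. Reversed were, for KO against WT, Eif4b (−0.15 with equal totals, −0.14 with equal totals without mitochondrial rows); for ETO against Control, Eef1a1 (0.15) and Eef2 (0.12) with equal totals, Eif3a (0.04 with equal totals, 0 without mitochondrial rows) and the Eif4e3 row with the FPKM table (−0.22); for Released against ETO, Eef1a1 with the FPKM table (0.02) and Eif3a with equal totals (−0.13). For the difference between KO and ETO changes, reversed were the Eif4ebp3 row (−0.33 with equal totals, −0.29 without mitochondrial rows), Eif3f (−0.32 and −0.27), Eef1a1 (−0.22), Eif1 (−0.26) and Eif2a (just below 0, rounded to −0) with equal totals, and Eif3c (−0.19 with TMM factors, −0.18 with median-of-ratios factors, −0.35 and −0.31 with equal totals); the cause was not tested. Genes higher in KO numbered 12 with equal totals, 14 without mitochondrial rows and 15 in the FPKM table. Genes lower in KO numbered 8 with TMM and with median-of-ratios factors, 15 and 16 with equal totals, 3 in the FPKM table, 2 with a fit per experiment and 2 with plain moderation, and 3 to 6 with 1 library left out. Genes higher in ETO were 8 with equal totals. Genes lower in Released against ETO were 4 without Released replicate 1 and up to 7 otherwise when 1 library was left out. Genes higher in Released against Control were 1 with TMM factors, median-of-ratios factors, both equal-total scalings, a filter of 50, a fit per experiment and the replicate block (0 to 1 with 1 library left out). Genes lower there were 0 with equal totals, 2 without mitochondrial rows, 0 in the FPKM table, 19 with a fit per experiment, 17 with the replicate block, 1 with plain moderation, and 0 to 14 with 1 library left out. Eif3j1, at 3.32 to 37.8, had the lowest normalised counts of the 57 genes, and the part of depth in its missing calls was not tested. In the FPKM table it had 73.4 and 245 in WT libraries and 81.7 and 190 in KO libraries, and was not lowest. How reads were split between Eif3j1 and Eif3j2 is not known. Deviations of same-numbered libraries had an r of 0.08 for KO and WT and −0.01 for ETO and Control. Single genes could still move together by number. In both WT and KO, Eif3e and Eif2s1 were higher and Eif6 and Eef2kmt lower in replicate 2, while Eif1 went opposite ways. The labels do not say that the number pairs libraries, so it was not used in the main results. With the replicate block 27 genes were higher and 7 lower in KO, and 6 and 45 in ETO. Count models were not run because the reads could not be recovered whole.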
